A study of Drosophila melanogaster with 9 samples.

Results

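Dif, dl, cact, Rel, Tl, spz, tub and pll encode the ligand, receptor, adaptor, kinase, inhibitor and transcription factors at the centre of the Drosophila Toll pathway, together with the NF-kappaB factor of the sister Imd pathway. They were selected by gene symbol, and all 8 were found among the 14168 entries of the count table and passed the filter on low counts that left 8487 genes for testing. The libraries held polyadenylated RNA of whole wing imaginal discs, larval epithelia from which the adult wing develops, dissected from Drosophila melanogaster in the third larval instar with 100 discs pooled per extraction. The 3 genotypes had 3 biological replicates each, and all carried the engrailed driver en-GAL4, which is active in the posterior compartment. Control discs (en-GAL4>+) held the driver with no RNA interference transgene, and the names of their data columns carry w1118, a white mutant strain. The NAT10 knockdown (en-GAL4 > UAS-NAT10-RNAi) depleted NAT10, the enzyme that acetylates cytidines of ribosomal RNA, and the double knockdown (en-GAL4 > UAS-NAT10-RNAi,Xrp1-RNAi) also targeted Xrp1, a bZIP transcription factor of the ribosomal stress response. The study was set up to learn which effects of NAT10 depletion on transcripts require Xrp1.

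In the Toll pathway a protease cascade outside the cell cleaves the cytokine-like protein Spätzle (spz), which then binds the receptor Toll (Tl). The receptor recruits the adaptors Myd88 and Tube (tub) and the kinase Pelle (pll), which leads to the breakdown of Cactus (cact), the IkappaB-type inhibitor that holds Dorsal (dl) and Dif in the cytoplasm. Relish (Rel) is instead released by cleavage of its own inhibitory part in the Imd pathway. The pathway sets the dorsal-ventral axis of the embryo, drives antimicrobial genes in the fat body and has been tied to the loss of less fit cells in wing discs. It is governed largely by proteolysis and nuclear entry of proteins, which transcript levels do not measure.

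The libraries held between 14183856 and 19949448 estimated counts, and Pearson correlations of log2 levels between replicates ran from 0.996 to 0.997. No library stood apart from its genotype. The targeted transcripts were read first: l(1)G0020, the fly NAT10 gene, was 0.614 times control in the single and 0.736 times control in the double knockdown, and Xrp1 was 1.81 times and 0.786 times control (quasi-likelihood test of edgeR, p adjusted by Benjamini-Hochberg over all genes tested, adjusted p = 6.2e-14, 2.38e-09, 1.29e-19 and 1.81e-10). The driver locus en was itself lower in both knockdowns, with 101 ± 2.59 CPM before and 61.7 ± 0.705 CPM after NAT10 knockdown, and 71.8 ± 1.14 CPM with both knockdowns. In the same test l(1)G0020 was higher in the double than in the NAT10 knockdown (log2 0.26, adjusted p = 7.11e-06). The same held for en (log2 0.22, adjusted p = 6.47e-05). No genotype had Xrp1 targeted alone. The part of the higher l(1)G0020 level in differences between the knockdowns was not tested. Because whole discs were pooled, targeted and untargeted cells are mixed, and fewer cells of a type cannot be told apart from less RNA per cell. Levels below are normalised CPM (counts scaled to a common library size, with TMM factors), given as mean ± SD of n = 3. Log2 fold changes are given ± SE, and an adjusted p under 0.05 is termed a call.

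The comparison of the NAT10 knockdown with control asks which of these transcripts change when NAT10 is depleted. Dif rose 14.1-fold and dl 1.51-fold, Rel and cact rose slightly, and the receptor gene Tl fell. The ligand and the signal-relay genes spz, tub and pll were not called. In all, 4 of the 8 genes were higher and 1 was lower, where 32.5% of all genes tested were called higher and 29.6% lower. The total of 5 called is near the background of 62.1%, so the count itself sets these genes apart in no way. For the same 5 genes no library of the knockdown overlapped control, where the background is 65.6%. The median log2 fold change was 0.16 over the 8 genes and 0.03 over all genes tested.

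Dif, which with dl carries the Toll signal into the nucleus, had the largest change of the 8 genes. Its level was 7.75, 5.96 and 6.03 CPM in the control libraries, 91.9, 93.2 and 96.3 with NAT10 knockdown and 12.6, 14.3 and 14.1 with the double knockdown. The 3 genotypes did not overlap, with the NAT10 knockdown far above both others and the double knockdown at 2.06 times control. The log2 fold change was 3.82 ± 0.078 (adjusted p = 3.6e-24) in the NAT10 knockdown, and 83 of the 8487 genes had a higher one. It was the only one of the 8 genes to change at least 2-fold, against 11.1% of all genes that were called with such a change. Dif lies on chromosome 2L from 17413248 to 17433161 on the minus strand (BDGP6.54 annotation), and 4.42% of its exon bases overlap exons of CG15141 on the opposite strand. CG15141 stood at 88.3 ± 1.46 CPM in control, 82.9 ± 2.57 with NAT10 knockdown and 80.3 ± 3.54 with the double knockdown. Its counts were thus far above those of Dif in control and did not rise with Dif, and without strand information reads from the shared bases cannot be told apart, which bears most on the low control level of Dif. Of the 8 genes only Dif had estimated counts that were not whole, such as 139.25 in control replicate 1 and 1605.69 in NAT10 knockdown replicate 1. The source of these fractions is not given.

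The neighbouring gene dl encodes Dorsal, the NF-kappaB factor first known from the embryonic axis. It lies 3668 bases from Dif on the same strand (2L, 17436830 to 17450364). Its level was 51.9, 59.2 and 57.0 CPM in control, 85.1, 82.5 and 86.4 with NAT10 knockdown and 64.1, 62.0 and 67.6 with the double knockdown. As for Dif, the genotypes did not overlap and the double knockdown lay between the others. The rise in the NAT10 knockdown was 0.60 ± 0.050 on the log2 scale (adjusted p = 6.28e-11), and 20.5% of genes had a larger change in either direction.

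Rel, the factor of the Imd pathway (3R, 9044183 to 9047977, minus strand), changed far less than Dif. Its level was 76.3, 69.9 and 75.6 CPM in control, 83.2, 85.7 and 83.3 with NAT10 knockdown and 68.7, 66.1 and 68.9 with the double knockdown. The NAT10 knockdown libraries were the highest and the double knockdown libraries the lowest. The log2 fold change in the NAT10 knockdown was 0.18 ± 0.044 (adjusted p = 0.000749).

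The gene of the inhibitor Cactus (cact, 2L, 16313036 to 16326207, minus strand) had 123, 124 and 122 CPM in control, 138, 133 and 133 with NAT10 knockdown and 115, 124 and 118 with the double knockdown. The NAT10 knockdown lay above both others, which overlapped. Its log2 fold change in the NAT10 knockdown was 0.13 ± 0.036 (adjusted p = 0.00306), a call that was lost without NAT10 knockdown replicate 1 (adjusted p = 0.0582).

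The receptor gene Tl (3R, 26799041 to 26842403, plus strand) was the only one of the 8 that fell. It stood at 96.1, 89.6 and 85.9 CPM in control, 72.4, 70.0 and 72.2 with NAT10 knockdown and 90.7, 91.6 and 90.5 with the double knockdown. The NAT10 knockdown was below every other library, while the double knockdown lay within the range of control. It fell by 0.34 ± 0.044 on the log2 scale (adjusted p = 1.84e-07).

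The ligand gene spz (3R, 27064990 to 27070070, minus strand) had the lowest level of the 8, with 2.45, 2.41 and 1.35 CPM in control, 2.35, 2.71 and 2.83 with NAT10 knockdown and 2.56, 3.41 and 2.56 with the double knockdown. The control and NAT10 knockdown libraries overlapped, and the gene was not called (log2 0.35 ± 0.24, 95% interval -0.12 to 0.82, adjusted p = 0.211). The low mean of control rests on its replicate 3, without which the log2 difference was 0.11 (adjusted p = 0.718).

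The adaptor gene tub (3R, 4387742 to 4389813, plus strand) had 78.4, 74.9 and 82.4 CPM in control and 75.3, 76.9 and 76.3 with NAT10 knockdown, with 77.2, 75.2 and 72.4 with the double knockdown. The kinase gene pll (3R, 27251131 to 27253182, minus strand) had 41.3, 43.1 and 43.6 in control, 45.2, 48.3 and 42.4 with NAT10 knockdown and 44.9, 47.7 and 48.7 with the double knockdown. Control and NAT10 knockdown libraries overlapped for both genes. The 95% intervals of the log2 fold change were -0.13 to 0.04 for tub and -0.03 to 0.20 for pll (adjusted p = 0.362 and 0.194), so larger changes than these lie outside the intervals.

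**Figure D1:**
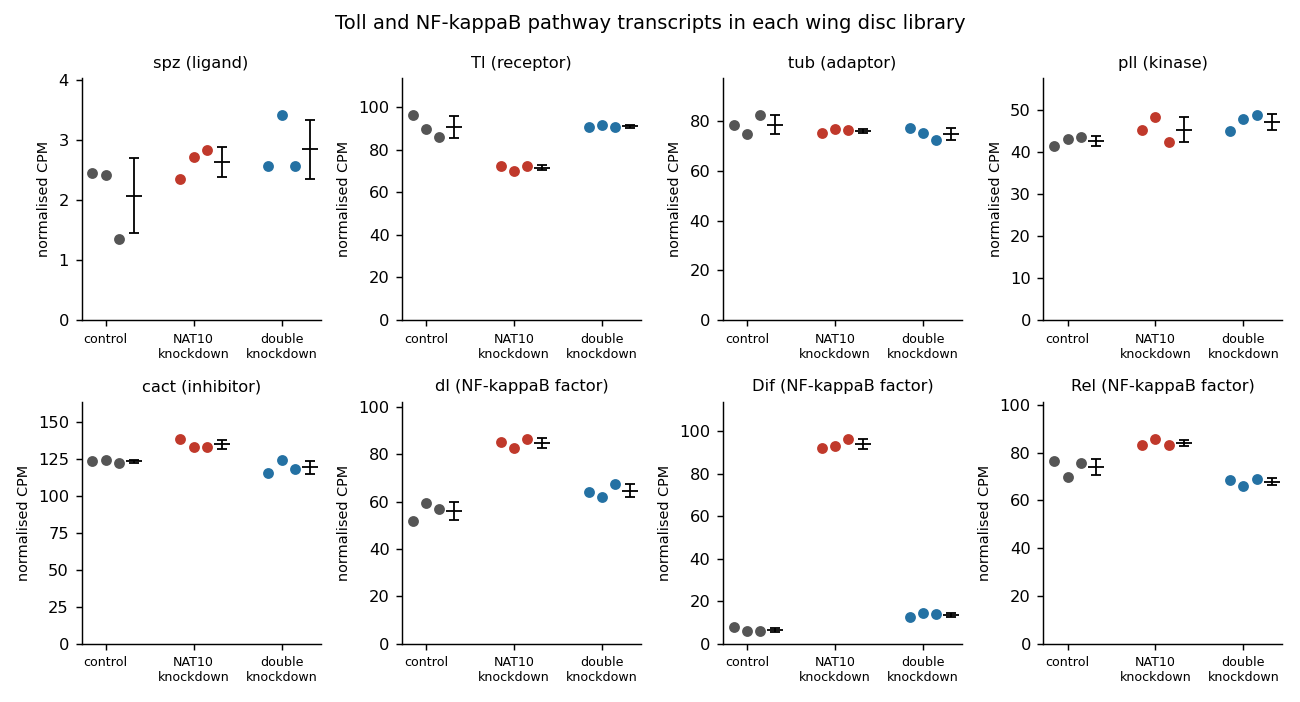
Normalised CPM (y axis, from 0, with a scale of its own in each panel) of the 8 genes in each library, by genotype; points are single libraries, and the dash with its bar is the mean ± SD of 3. Dif rises from about 6 to 8 CPM in control to 91.9 to 96.3 with NAT10 knockdown and is at 12.6 to 14.3 with the double knockdown, while Tl is lowest in the NAT10 knockdown.

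The comparison of the double knockdown with control shows which of these differences were seen in discs where Xrp1 was targeted as well and l(1)G0020 was less reduced. Dif, again the only one of the 8 genes called with at least a 2-fold change (4.58% of all genes), and dl were still above control, at log2 1.04 ± 0.097 and 0.21 ± 0.051 (adjusted p = 2.76e-09 and 0.00232). Tl was not called, at 90.6 ± 5.14 CPM in control and 90.9 ± 0.597 with the double knockdown (95% interval of the log2 fold change -0.08 to 0.09, adjusted p = 0.944), and neither was cact (interval -0.12 to 0.02, adjusted p = 0.339). In all, 2 of the 8 genes were higher and 1 was lower, where 15.7% of all genes were called higher and 15.5% lower. When only total counts set the scale, the split over all genes was 1613 higher and 1044 lower in place of 1335 and 1318, and that of the 8 genes was 3 higher and 0 lower. The median log2 fold change of the 8 genes was 0.07, against 0.001 over all genes. Libraries did not overlap for 5 of the 8 genes, against 42.4% of all genes.

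The single lower gene was Rel, at log2 -0.12 ± 0.044 (adjusted p = 0.0321). This call was lost under 7 of 16 alternatives, among them DESeq2 (adjusted p = 0.0587) and scaling by total counts (adjusted p = 0.089), and its FPKM of 21.8 ± 0.994 and 21.5 ± 0.397 overlapped. The kinase gene pll missed the threshold at log2 0.14 ± 0.055 (adjusted p = 0.054) and passed under 5 of 16 alternatives. Its control libraries were all below those of the double knockdown. For spz the difference was 0.46 ± 0.23 (adjusted p = 0.146), with each double knockdown library above each control library. It was 0.22 without control replicate 3 (adjusted p = 0.551). For tub the difference was -0.07 ± 0.044 (adjusted p = 0.239).

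The double knockdown was also compared directly with the NAT10 knockdown. Dif fell by 2.78 ± 0.067 on the log2 scale, a 6.85-fold lower level (adjusted p = 1.98e-22), and only 82 of 8487 genes had a lower log2 fold change. dl, Rel and cact fell by 0.39 ± 0.048, 0.31 ± 0.043 and 0.18 ± 0.036 (adjusted p = 1.03e-07, 9.51e-07 and 0.000132). Tl rose by 0.35 ± 0.043 (adjusted p = 1.36e-07). The genes spz, tub and pll were not called (adjusted p = 0.71, 0.68 and 0.396). Thus 4 of the 8 genes were lower and 1 was higher, where 28.3% of all genes were called lower and 28.4% higher, and the total of 5 is again near the background of 56.7%. Libraries did not overlap for the same number of the 8 genes, against 63.0% of all genes, and the median log2 fold change was -0.10, against -0.011 over all genes. This comparison and the first share the NAT10 knockdown libraries, so their opposite signs are not independent of each other. On the CPM scale, the excess of Dif over control was 87.2 with NAT10 knockdown and 7.11 with the double knockdown, or 8.15% of it. For dl the excess was 28.6 and 8.48 CPM, or 29.6%. These shares depend on the scale: the log2 fold changes against control were 3.82 and 1.04 for Dif and 0.60 and 0.21 for dl.

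**Figure D2:**
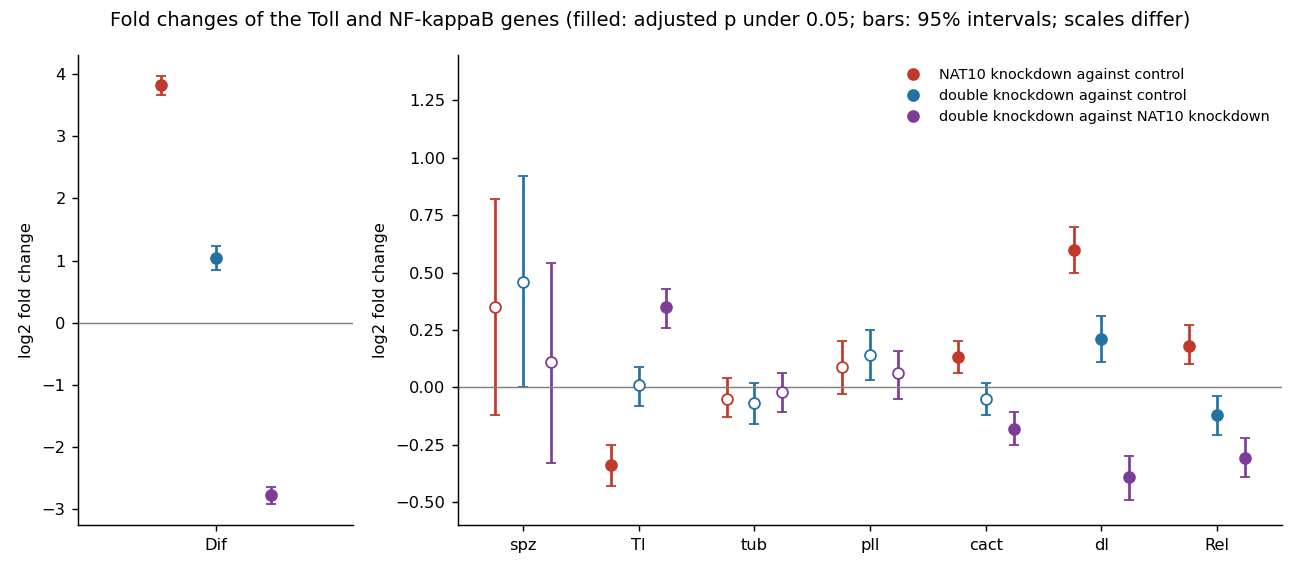
Log2 fold change (y axis, Dif on its own scale at left) of each gene in the 3 comparisons; filled points passed an adjusted p under 0.05, and bars are 95% intervals from the standard error. Dif stands at 3.82, 1.04 and -2.78, whereas the other 7 genes lie between -0.39 and 0.60.

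Levels of different genes can be set side by side per transcript length, on the FPKM scale that the authors deposited. In control discs cact was the highest of the 8 at 58.6 ± 0.411 FPKM, followed by tub at 38.9 ± 1.86. Next came pll, Rel, dl and Tl at 22.3 ± 0.681, 21.8 ± 0.994, 19.5 ± 1.59 and 17.5 ± 0.962, and each of these overlapped its neighbour in that order. Dif at 2.1 ± 0.348 and spz at 1.00 ± 0.298 were the lowest. In the NAT10 knockdown Dif had moved to the third place at 31.2 ± 0.803, level with dl at 30.2 ± 0.792, whose libraries it overlapped. With Xrp1 targeted too it was again next to lowest at 4.47 ± 0.207, above spz at 1.41 ± 0.236.

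The 3 NF-kappaB genes together had 42.6 to 44.3 FPKM in control, 85.8 to 88.6 with NAT10 knockdown and 47.5 to 50 with the double knockdown. Dif made up 4.84% ± 0.890 of that sum in control, 35.8% ± 0.346 with NAT10 knockdown and 9.21% ± 0.536 with the double knockdown. The level of Dif divided by that of dl was 0.141, 0.0921 and 0.0937 in the control libraries, 1.01, 1.05 and 1.03 with NAT10 knockdown and 0.190, 0.214 and 0.189 with the double knockdown. The transcript of the inhibitor relative to that of the Cactus-bound factors also differed: cact divided by the sum of Dif and dl was 2.90, 2.60 and 2.65 in control, 1.09, 1.05 and 1.02 with NAT10 knockdown and 2.11, 2.27 and 2.01 with the double knockdown. None of these ratios overlapped between genotypes. They describe transcripts and were not tested.

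**Figure D3:**
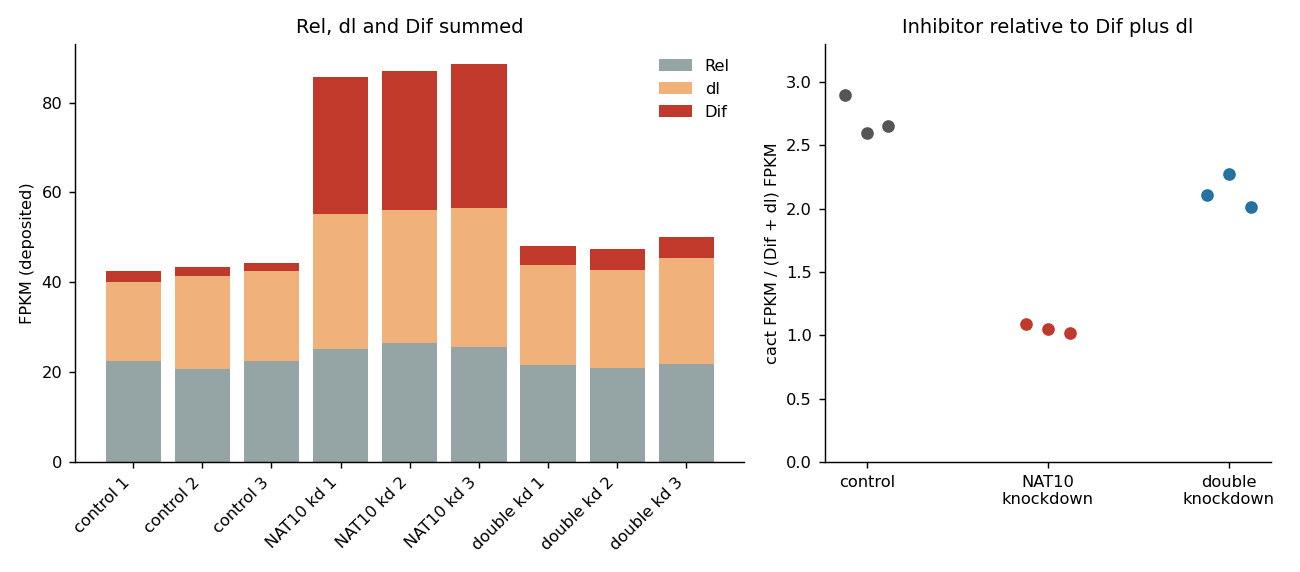
Left, deposited FPKM of Rel, dl and Dif stacked for each library (kd, knockdown); right, FPKM of cact divided by the sum of Dif and dl, a point per library. The stack is about 43 FPKM in control and 86 to 89 with NAT10 knockdown, mostly through Dif, and the ratio goes from 2.60 to 2.90 in control to 1.02 to 1.09.

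In the authors' deposited tables the log2 fold changes of Dif were 3.90 with NAT10 knockdown and 1.09 with the double knockdown, with an FDR of 1.42e-148 and 6.04e-09. For dl the authors' deposited tables give 0.63 and 0.21 (FDR 1.79e-09 and 0.00239). Of the 8 genes only these were under 0.05 in the authors' deposited table for the NAT10 knockdown, where the edgeR fit also called Tl, cact and Rel. In the authors' deposited table for the double knockdown pll was under 0.05 as well (FDR 0.0195), and Rel was not (log2 -0.02, FDR 0.594).

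The genes whose levels followed Dif most closely were found by the root mean square difference of log2 levels, each centred on its control mean, over the 9 libraries. They were CG13954 (0.174), a locus assembled from the reads with no gene name (0.197), JhI-26 (0.206), the tetraspanin gene Tsp42Ed (0.266) and CG6142 (0.277). CG13954 went from 1.07 ± 0.294 CPM in control to 24.1 ± 2.1 with NAT10 knockdown and 2.58 ± 0.148 with the double knockdown, and JhI-26, known as a juvenile hormone inducible gene, from 1.44 ± 0.222 to 24.9 ± 0.953 and 2.62 ± 0.252. The assembled locus went from 0.151 ± 0.141 to 9.07 ± 1.28 and 0.947 ± 0.25, Tsp42Ed from 0.105 ± 0.0444 to 9.93 ± 0.62 and 0.659 ± 0.161, and CG6142 from 0.915 ± 0.267 to 13.4 ± 1.41 and 2.55 ± 0.25. In control the assembled locus and Tsp42Ed were below the filter level of 0.557 CPM. They passed the filter only through knockdown libraries, so their place among these genes depends on those libraries. All 5 were far lower than Dif in control, and the measure adds 0.5 CPM before the log, which shrinks the differences of such genes, so their closeness to Dif depends on that choice. These points also fall into 3 genotypes, so the likeness rests on 3 levels and their spread.

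Some genes of the lists that follow did not reach the 0.557 CPM of the filter in all 3 libraries of each genotype and passed it through the other libraries. Those of the Toll and Imd pathways are given by their values and left out of counts and medians, a choice made after the data were seen. Over all genes tested, 32.5% were called higher and 29.6% lower in the NAT10 knockdown against control. In the double knockdown against control these shares were 15.7% and 15.5%. No list count was tested against them. Among 7 other Toll receptors, 3 were at 0.557 CPM or more in every library, and in the NAT10 knockdown all 3 were lower (median log2 -0.25, against 0.03 over all genes). 18w, a Toll-family receptor gene, went from 367 ± 5.20 to 218 ± 2.91 CPM (log2 -0.75, adjusted p = 5.05e-19), and Toll-7 and Tollo fell by 0.25 and 0.10 (adjusted p = 6.04e-09 and 0.00268). With both knockdowns 18w was at 317 ± 2.56 and Toll-7 at 360.0 ± 3.94, both still lower than control (adjusted p = 2.67e-07 and 0.0164), while Tollo was not called (adjusted p = 0.867). Toll-9 was at 0.463 ± 0.158 CPM in control, 0.228 ± 0.149 with NAT10 knockdown and 1.76 ± 0.102 with the double knockdown, from 23, 12 and 102 counts. It passed the filter only through the double knockdown libraries, so no test of it is given. In the double knockdown 18w, Toll-7 and Tollo were higher than in the NAT10 knockdown, by 0.54, 0.16 and 0.10 on the log2 scale (adjusted p = 7.6e-16, 5.18e-06 and 0.00555).

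Genes of the other Spätzle-type ligands, which bind Toll-family receptors, moved in both directions in the NAT10 knockdown, 2 higher and 3 lower of 5. The gene spz6 went from 25.7 ± 1.55 to 7.04 ± 1.37 CPM (log2 -1.87, adjusted p = 2.85e-14) and NT1 from 11.6 ± 0.821 to 4.5 ± 1.07 (log2 -1.36, adjusted p = 1.33e-09). The gene spz4 rose from 1.11 ± 0.103 to 3.35 ± 0.417 (log2 1.58, adjusted p = 3.85e-06) and spz3 by 0.34 (adjusted p = 6.37e-05). Exons of spz4 share 8.5% of their bases with Dlg5 on the opposite strand. Against control, the double knockdown had only spz6 called among the 5, at log2 -0.35 (adjusted p = 0.00354).

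Of 18 genes for extracellular recognition and the protease cascade, 11 were at 0.557 CPM or more in every library, and in the NAT10 knockdown 3 of them were higher and 5 lower (median log2 -0.03). The gene psh encodes the serine protease Persephone that senses microbial proteases, and PGRP-SA a circulating recognition protein. Both are outside the 11, since no control library reached that level and they passed the filter only through knockdown libraries. The level of psh was 0.273 ± 0.140 CPM in control, 12.2 ± 2.31 with NAT10 knockdown and 0.668 ± 0.128 with the double knockdown, from 13, 639 and 39 counts. That of PGRP-SA was 0.432 ± 0.0567, 4.15 ± 1.39 and 1.09 ± 0.129, from 21, 217 and 63 counts. The gene ea encodes Easter, the protease that cleaves Spätzle in the embryo, and rose from 9.35 ± 1.20 to 23.5 ± 0.788 (log2 1.33, adjusted p = 1.43e-12). SPE, the protease that cleaves Spätzle in immunity, fell from 2.66 ± 0.640 to 1.28 ± 0.18 (log2 -1.03, adjusted p = 0.000959). SPE and PGRP-SA were singled out after their values were seen.

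The genes wbl and pip act in the ovary upstream of the embryonic cascade, wbl as a chaperone of the secretory pathway and pip as a sulfotransferase. They went from 127 ± 0.437 to 9.91 ± 0.878 CPM and from 26.3 ± 1.85 to 3.78 ± 0.257 with NAT10 knockdown (log2 -3.68 and -2.80, adjusted p = 7.35e-27 and 1.61e-18). With both knockdowns they were at 80.8 ± 2.00 and 19.6 ± 0.899, below control (adjusted p = 1.42e-12 and 0.000125). Over the 11 genes, none was higher and 5 were lower in the double knockdown against control.

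Among 7 serpins that restrain such proteases, 5 were at 0.557 CPM or more in every library, with 3 higher and none lower in the NAT10 knockdown (median log2 0.12). Spn42Dc rose from 2.49 ± 0.311 to 9 ± 0.999 CPM (log2 1.85, adjusted p = 3.41e-10). The level of nec, the inhibitor of the Persephone branch, was 0.753 ± 0.280 in control and 2.44 ± 0.414 with NAT10 knockdown, from 36 and 128 counts, and since only 2 control libraries reached the filter level no test of it is given. Spn28Dc was higher in both knockdowns, at log2 0.45 and 0.46 (adjusted p = 2.88e-06 and 6.83e-06). Spn88Ea was lower in the double knockdown than in control (log2 -0.25, adjusted p = 3.62e-06) and than in the NAT10 knockdown (log2 -0.21, adjusted p = 1.49e-05). In the double knockdown 1 serpin was higher and 1 lower than control.

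Of 13 intracellular Toll signalling genes, all tested, 4 were higher and 5 lower in the NAT10 knockdown (median log2 -0.07), where 62.1% of all genes were called. Myd88, the adaptor that binds tub, stood at 57.1 ± 3.24 CPM in control against 57.1 ± 1.04 after NAT10 knockdown (adjusted p = 0.958) and is named here outside the rule, for its place beside tub. The gene sick, counted in this list although it is known for its part in Relish activation, rose by 0.79 (101 ± 1.70 to 176 ± 6.55, adjusted p = 2.85e-16). Traf4 rose by 0.60 (adjusted p = 7.59e-08), although 26.8% of its exon bases overlap an annotated noncoding gene on the opposite strand. Pli, which encodes the Pelle-binding protein Pellino, fell by 0.35 (adjusted p = 2e-09), and the kinase gene Doa by 0.34 (adjusted p = 1.11e-10). Of the 13, none was higher than control in the double knockdown and 4 were lower.

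Of 16 genes of the Imd pathway other than Rel, 15 were tested, with 3 higher and 5 lower in the NAT10 knockdown (median log2 -0.03). The share of all genes called there was 62.1%. The intracellular peptidoglycan receptor gene PGRP-LE fell from 38.1 ± 3.53 to 18.9 ± 1.39 CPM (log2 -1.01, adjusted p = 6.55e-12), and the ubiquitin-conjugating enzyme gene eff, which has many roles beyond this pathway, from 899 ± 32 to 554.5 ± 5.26 (log2 -0.70, adjusted p = 1.61e-17). Diap2, a ubiquitin ligase gene, rose by 0.48 (adjusted p = 1.66e-09). The membrane receptor gene PGRP-LC behaved otherwise: it was at 1.74 ± 0.0931 in control, 2.04 ± 0.448 with NAT10 knockdown (adjusted p = 0.371) and 9.18 ± 0.596 with the double knockdown (log2 2.40 against control and 2.16 against the NAT10 knockdown, adjusted p = 1.71e-11 and 1.13e-11). Of the 15, 1 was higher than control in the double knockdown and 4 were lower. Of 15 amidases and negative regulators 7 were at 0.557 CPM or more in every library, with 2 higher and 4 lower in the NAT10 knockdown and 1 higher and 1 lower in the double knockdown. PGRP-LF passed the filter only through the double knockdown libraries, with 7, 22 and 50 counts in the 3 genotypes. RYBP, scny and trbd fell by 0.45, 0.21 and 0.25 with NAT10 knockdown, and dnr1 rose by 0.34 (adjusted p = 1.14e-07, 1.1e-06, 0.000499 and 0.000277).

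Genes of antimicrobial peptides and Bomanins, the secreted targets by which Toll and Imd output is usually read, were nearly silent in all 3 genotypes. Of 37 listed, 20 had no counts in any library, a further 15 had fewer than 20 counts over all 9 libraries together, and only CG18067 passed the filter. The summed counts of the list were 31 in control, 96 with NAT10 knockdown and 85 with the double knockdown. The summed level ran from 0.469 to 0.836 CPM in the control libraries, from 1.66 to 2.00 with NAT10 knockdown and from 1.15 to 1.61 with the double knockdown. CG18067, named Bbd in the current nomenclature, was at 0.0999 ± 0.0252 in control, 0.491 ± 0.216 with NAT10 knockdown and 0.658 ± 0.381 with the double knockdown, from 5, 26 and 39 counts. It passed the filter only through knockdown libraries, so no test of it is given. Without it the summed level was 0.351 to 0.725 in control, 1.20 to 1.53 with NAT10 knockdown and 0.703 to 0.934 with the double knockdown. At these counts a change of any single peptide gene was not detectable unless it was very large.

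**Figure D4:**
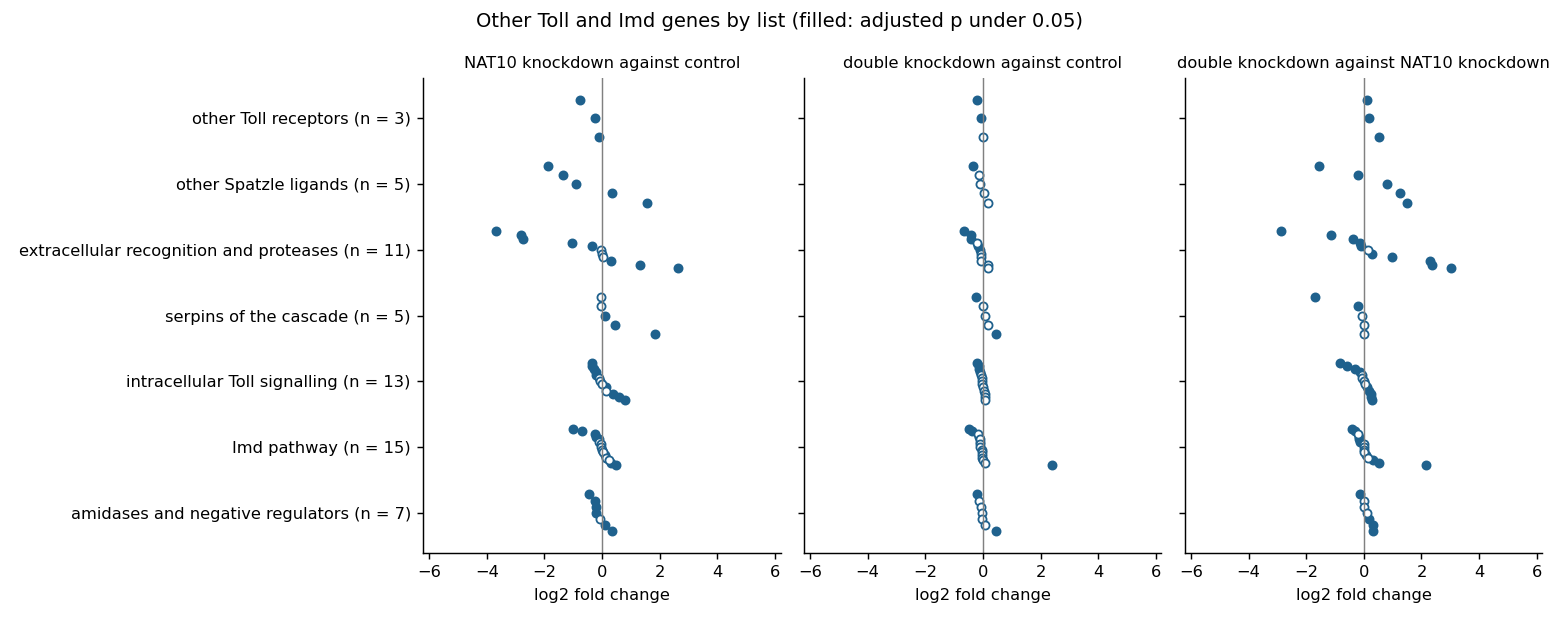
Log2 fold change (x axis) of the genes of each other Toll and Imd list that were at 0.557 CPM or more in every library (rows, with their number) in the 3 comparisons; each point is a gene, filled where its adjusted p was under 0.05. In the NAT10 knockdown the extracellular genes run from -3.68 (wbl) to 2.65 (gd, a protease gene of the embryonic cascade). The list of intracellular Toll signalling genes stays between -0.35 (Pli) and 0.79 (sick, known for its part in Relish activation).

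Toll pathway genes are also transcribed in the fat body and in hemocytes, the larval blood cells, so marker genes of these cells were examined in the same libraries. Of 10 fat body markers, 9 were tested and 7 were higher and 1 lower in the NAT10 knockdown, against 32.5% and 29.6% of all genes. The lower one was Apoltp, which no NAT10 knockdown library had at the filter level (41, 11 and 122 counts in the 3 genotypes). None of the 10 was without counts. Their summed level was 79.4 to 87.4 CPM in control, 152 to 163.5 with NAT10 knockdown and 1400.0 to 1446 with the double knockdown, where 8 were higher than control and none lower. FASN1, a fatty acid synthase gene, made up most of the sum in control (67.9 ± 3.48) and was at 89.3 ± 2.24 and 68 ± 1.07 in the knockdowns. The other 9 markers summed to 15.6 to 18 in control, 65.5 to 73.7 with NAT10 knockdown and 1332 to 1379 with the double knockdown, a split made after the values were seen.

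The storage protein genes Lsp1gamma and Lsp1beta were the most abundant fat body markers by mean over the 9 libraries. Lsp1gamma went from 4 ± 0.625 CPM in control to 16.6 ± 0.779 with NAT10 knockdown and 366 ± 13.7 with the double knockdown, and Lsp1beta from 2.25 ± 0.140 to 19.3 ± 0.517 and 269 ± 4.68. Against control the NAT10 knockdown was 4.18-fold and 8.6-fold higher (adjusted p = 3.96e-16 and 2.95e-20). Most fat body markers thus rose in the NAT10 knockdown, as Dif did, and their sum was higher still with the double knockdown, where Dif was at 13.7 ± 0.910 CPM against 93.8 ± 2.25. The part of these markers in the levels of Dif, PGRP-LC and Toll-9 in either knockdown was not tested.

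Of 12 hemocyte markers 11 were tested, with 2 higher and 4 lower in the NAT10 knockdown and 2 higher and 3 lower in the double knockdown, and none was without counts. Without NimC1, He and Sr-CI, which were below the filter level in some libraries, 2 were higher and 3 lower in either knockdown. The sum of the 12 was 231 to 247 CPM in control, 312 to 331 with NAT10 knockdown and 278 to 290.1 with the double knockdown. The higher genes were the collagen genes Col4a1 and vkg, which fat body also expresses (106 ± 2.31 and 66.5 ± 4.94 in control, 159 ± 8.63 and 107 ± 2.47 with NAT10 knockdown). The other 10 markers summed to 65.7 to 69.3 in control, 52.2 to 55.5 with NAT10 knockdown and 51.6 to 53.7 with the double knockdown, a split made after the values were seen. Among these, crq, PPO1 and PPO2 were called lower in both knockdowns. PPO1 was at 4.53 ± 0.4, 1.05 ± 0.269 and 1.08 ± 0.333 CPM in the 3 genotypes. PPO2 was at 6.55 ± 0.941, 1.32 ± 0.453 and 1.83 ± 0.252, and crq at 41.8 ± 1.07, 37.5 ± 1.1 and 36.6 ± 1.79. They were named after their values were seen. Muscle markers, of which 7 of 8 were tested, were higher in 2 (sls and Mlc2) and lower in 5 cases in the NAT10 knockdown (median log2 -1.69). In the double knockdown 1 was higher and 6 were lower than control (median log2 -1.14). They summed to 168 to 178, 221 to 228 and 177 to 193.5 in the 3 genotypes. These sums were led by sls, at 99.7 ± 4.71, 181.7 ± 1.86 and 142.8 ± 6.86 CPM, and ran against most genes of the list. Of the 5 trachea markers, 3 (verm, serp and Gasp) were higher in the NAT10 knockdown and 2 (btl and trh) lower, at log2 -0.51 and -0.55. In the double knockdown 3 were higher than control and none lower. The 5 summed to 888 to 916, 1209 to 1269 and 1007 to 1049, with verm alone at 465 ± 11.6, 685 ± 20.6 and 542 ± 19.7. By mean over the 9 libraries, sls and Act57B were the most abundant of the muscle list and verm and serp of the trachea list. In the NAT10 knockdown Mlc2 (27 ± 1.15 CPM) was above Act57B (11.1 ± 1.44).

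The tissue label was checked with 10 wing disc markers, all of which were detected in every library. They summed to 3628 to 3753 CPM in control, 2900 to 2966.5 with NAT10 knockdown and 3584 to 3619 with the double knockdown, with shg, which encodes E-cadherin, and the selector gene sd the most abundant by mean over the 9 libraries. In the NAT10 knockdown the selector gene ap (451 ± 12.9) was above sd (439 ± 13.9). In the NAT10 knockdown 9 were lower and none higher, beside the lower levels of Tl, 18w and Toll-7. In the double knockdown 1 was higher and 3 were lower than control. Their part in the fall of these receptor genes was not tested.

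**Figure D5:**
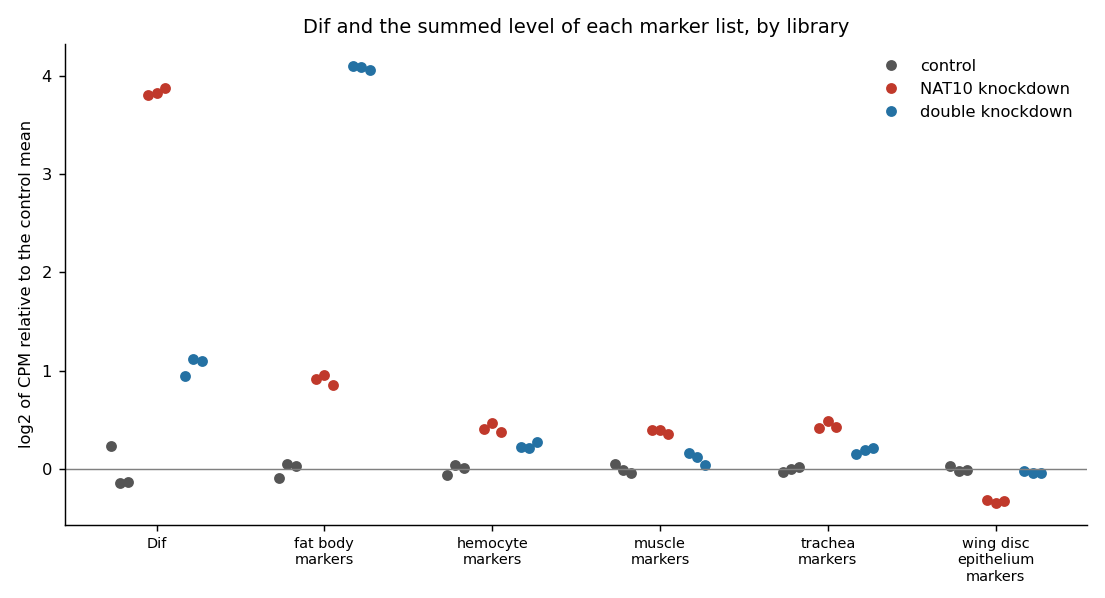
Log2 of the CPM of Dif and of the summed CPM of each marker list, relative to the control mean (y axis), with a point per library coloured by genotype. Dif is highest in the NAT10 knockdown, and the fat body markers rise from 79.4 to 87.4 CPM in control to 152 to 163.5 with NAT10 knockdown and 1400.0 to 1446 with the double knockdown. The muscle and trachea sums are led by sls and verm, and most muscle markers were lower in both knockdowns. Of the trachea markers, btl and trh were lower in the NAT10 knockdown, while verm, serp and Gasp were higher.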

How the data were processed

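Per the labels, RNA from pooled wing discs was enriched for polyadenylated transcripts and sequenced in 9 libraries. The estimated counts and FPKM values were deposited by the authors. The submitters' processing notes name RSEM, StringTie 1.3.1, HISAT2 2.1.0 and fastp 0.18.0, with no step given for any of them. The log2 fold changes and adjusted p-values (FDR) of the 2 comparison tables were deposited by the authors, and the test behind them and the genome build are not given in the sources used here. Coordinates come from the BDGP6.54 annotation, Ensembl release 115, and no sequence is printed.

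Between 8.19% and 9.11% of the counts of a library were not whole and were rounded. A robust quasi-likelihood model of all 9 libraries was made with edgeR 4.0.16 under R 4.3.3, after filterByExpr and TMM normalisation, and p-values were adjusted by Benjamini-Hochberg over the 8487 genes tested. The standard error is the log2 fold change divided by the root of its F value, and 95% intervals use the normal distribution. The common biological coefficient of variation was 3.61%. The pipeline was tested on simulated data. FPKM values served to compare genes, to form ratios and, once, to set the level of Rel beside its test. No count column belonged to another series.

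The 8 genes and all gene lists were chosen with earlier results of these data known. Named genes were the 8, up to 4 called genes per pathway list with the smallest adjusted p in any comparison, the 2 most abundant of each marker list, the targeted and driver genes, and the 5 genes most like any of the 8 that changed at least 2-fold, measured on log2(CPM + 0.5).

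Alternatives were DESeq2 1.42.0, RLE size factors, total counts only, no filter, at least 5 CPM in 3 libraries, only the genotypes compared, a replicate block, each library left out, and an adjusted p under 0.01. Tables and figures used matplotlib 3.10.9, scipy 1.17.1, numpy 2.4.6 and pandas 2.3.3 under Python 3.11.15.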

Additional observations from a re-analysis of the deposited data

How the results depend on the processing

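Of the 24 fold changes of the 8 genes in 3 comparisons, 18 kept their direction and their side of the threshold under every alternative run. The log2 fold change of Dif ran from 3.75 to 3.96 in the NAT10 knockdown, from 0.98 to 1.19 in the double knockdown and from -2.81 to -2.72 between them, and that of dl against control from 0.54 to 0.64 and from 0.15 to 0.25. The calls that changed were those of cact in the NAT10 knockdown and of Rel and pll in the double knockdown, given above, where adjusted p ran from 0.00169 to 0.0582, from 0.0096 to 0.123 and from 0.0215 to 0.165. Signs changed only in values that were not called: Tl in the double knockdown against control (-0.01 with no filter, -0.03 to 0.05 without single libraries), and, between the knockdowns and without single libraries, spz (-0.04 to 0.20) and tub (-0.04 to 0.02). With each library left out in turn, 4 to 5, 2 to 4 and 5 of the 8 genes were called in the NAT10 knockdown, the double knockdown and between them, and 4910 to 5340, 2284 to 2661 and 4460 to 5025 of all genes. Deviations of same-numbered libraries from their genotype means were only weakly correlated (from -0.0445 to 0.0815), and the main fit did not pair them. Such values cannot exclude a small shared batch. With a replicate block 5282, 2675 and 4839 genes were called, and 5, 3 and 5 of the 8. The level of spz left it out of the filter at 5 CPM. Leaving genes below the filter level in some libraries out of the list counts was a choice made after the data were seen. With them counted in, the NAT10 knockdown had 5 higher extracellular genes in place of 3 and 4 higher serpins in place of 3. In the double knockdown the extracellular list had 2 higher in place of 0, the amidases and negative regulators 2 in place of 1, and the other Toll receptors 1 in place of 0. The antimicrobial list had 1 in place of 0 in either knockdown. Between the knockdowns, 7 extracellular genes in place of 5 and 3 serpins in place of 2 were lower, and 4 other Toll receptors in place of 3 were higher. These added calls rest on genes below the filter level in some libraries.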
